A study of Homo sapiens with 28 samples.

Results

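The HOX genes lie in 4 clusters, HOXA, HOXB, HOXC and HOXD, and open chromatin over these clusters was described in AN3CA, an established endometrial carcinoma cell line. The members were the ATAC-seq peaks that overlap 1 of 4 windows of build hg19: HOXA at chr7:27120000-27260000, HOXB at chr17:46600000-46820000, HOXC at chr12:54320000-54460000 and HOXD at chr2:176940000-177070000. These windows span 630 kb and hold 38 HOX genes that were followed. Of 1247388 deposited peaks in 28 libraries, 1705 fell in the windows, with 695 in HOXA, 350 in HOXB, 199 in HOXD and the rest in HOXC. After every list was shortened to the same length and overlapping peaks were merged, 35 of 32972 regions lay in the windows.

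HOX genes encode homeodomain transcription factors that give cells their position along the body axis, and the order of the genes in a cluster follows the order of their expression along that axis. In the female reproductive tract the posterior HOXA genes pattern the oviduct, uterus and cervix, and HOXA10 and HOXA11 also act in the adult endometrium. HOX clusters are classic targets of Polycomb repression and of its counterpart, the Trithorax group, which includes SWI/SNF (BAF) chromatin remodelers. ARID1A and ARID1B are mutually exclusive subunits of the canonical BAF complex, and ARID1A is often mutated in endometrial carcinoma.

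ATAC-seq uses a transposase to cut and tag accessible DNA. All 28 libraries came from AN3CA cells, in 13 groups by title. Empty_vector (4 libraries) was the control. The wild-type proteins were ARID1A_WT and ARID1B_WT. The ARID1A variants were the truncations ARID1A_CBR and ARID1A_delIDR1, ARID1A_DBDmut with a mutated ARID domain, ARID1A_DDX4 with the disordered region of DDX4, ARID1A_AQGscramC1C2 and ARID1A_Y42S. The ARID1B forms were ARID1B_S320_G327del (mutant M2 in the labels), ARID1B_A457_G461del, ARID1B_Block13del and ARID1B_Block9del. Each group other than Empty_vector had 2 libraries. For ARID1A_AQGscramC1C2, ARID1A_Y42S, ARID1B_A457_G461del, ARID1B_Block13del and ARID1B_Block9del the genotype label names the empty vector, against the title, and they were grouped by title. The expression vector, its promoter, the clonality of the lines and the expression time were not given in the sources used here, nor was it stated whether replicates were separate cultures, so p-values measure a spread that may be technical.

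Peak names carry a date code that divides the libraries into 6 sets, called runs A to F here; whether the code dates the sequencing or the processing is not known. Runs A and B each hold 1 library of Empty_vector, ARID1A_WT, ARID1A_CBR, ARID1A_delIDR1 and ARID1A_DBDmut, and run C holds Empty_vector, ARID1B_WT and ARID1B_S320_G327del. Run D is ARID1A_DDX4, run F is ARID1A_AQGscramC1C2, and run E holds the other 4 constructs, so runs D, E and F have no control of their own. Read depth is unknown, and the lists were 19489 to 76589 peaks long. Wild-type lists held 59826 to 76589 peaks and Empty_vector lists 24573 to 49528. The main measure was therefore the length of each window covered by the 19433 most significant peaks of a library, ranked by -log10 p-value, which is the length of the shortest list on chromosomes 1 to 22 and X.

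In the RefSeq gene table the HOXA genes run from HOXA2 to HOXA13 with rising coordinate and the HOXB genes from HOXB1 to HOXB13. In HOXD the order is turned, from HOXD13 to HOXD1, and in HOXC it runs from HOXC13 down to HOXC8 and then lists HOXC4, HOXC5 and HOXC6 by their lowest coordinate. That table has build GRCh38, not hg19, so it was used for gene order only and no peak was placed on a gene. Markers of the cell type could not be looked up for the same reason. The 250 bases before the start of the outermost HOXA genes followed here are shown as examples of promoter sequence, with each CG in capitals (RefSeq, GRCh38.p14, both on the minus strand, chr7:27102684-27102933 for HOXA2 and chr7:27200092-27200341 for HOXA13):
HOXA2: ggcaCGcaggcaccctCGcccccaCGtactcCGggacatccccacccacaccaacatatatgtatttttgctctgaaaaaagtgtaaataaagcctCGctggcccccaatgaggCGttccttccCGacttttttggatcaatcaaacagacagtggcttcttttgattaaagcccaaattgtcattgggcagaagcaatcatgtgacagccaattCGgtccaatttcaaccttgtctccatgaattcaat
HOXA13: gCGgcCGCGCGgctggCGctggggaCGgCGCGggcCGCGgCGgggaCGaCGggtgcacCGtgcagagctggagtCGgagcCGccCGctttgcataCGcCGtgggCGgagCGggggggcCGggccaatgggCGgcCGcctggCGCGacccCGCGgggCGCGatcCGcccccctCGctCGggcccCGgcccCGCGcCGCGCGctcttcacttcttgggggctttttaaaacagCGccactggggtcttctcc

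HOXA2, a patterning gene of the hindbrain, has 8 CG in this stretch, and HOXA13, which acts in the distal limb and the urogenital tract, has 40. A HOXA3 promoter of the same cluster has 0 CG, so HOXA2 is not the low end. Promoters were found for 20 of the 38 genes, 27 promoters in all. Their median CG count was 19, against 11 over 35116 promoters of the genome. The letters TTTATNG, like the sites known for posterior HOX proteins, stood in 7 of the 27 HOX promoters (25.9%) against 8.93% of all promoters, on either strand. TGATNNAT, like the sites of HOX-PBX pairs, stood in 3 (11.1%) against 6.47%. TGANTCA, the AP-1 core, stood in 0 of 27 against 6.57%. HOXC4 and HOXC5 share 1 promoter sequence and HOXA3 has several promoters, so these counts are not independent, and a match of letters is a description, not a binding site.

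The HOX windows were rich in open chromatin in all groups, and HOXA most of all. Over the 28 whole lists, peaks covered 6.16% to 29.8% of the HOXA window (median 15.5%), against 0.510% to 2.12% of chromosome 7 (median 1.20%). The HOXA window lay above its chromosome in 28 of 28 libraries. Median coverage was 10.3% for HOXC against 1.21% of chromosome 12, 4.65% for HOXB against 1.99% of chromosome 17, and 3.26% for HOXD against 0.992% of chromosome 2. In lists of equal length the medians were 5.71% for HOXA, 2.91% for HOXB, 2.05% for HOXC and 1.47% for HOXD. HOXA and HOXB then exceeded their chromosome in 27 of 28 libraries, and HOXC and HOXD in all 28.

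HOXA peaks were weak. The fold enrichment of a peak is the authors' value over the background of its own list. The median fold of HOXA peaks in lists of equal length was 3.04 (median over libraries), against 4.07 for HOXC, 5.86 for HOXB, 6.98 for HOXD and 6.28 for the whole trimmed list. HOXA was lower than each of the other clusters in 28 of 28 libraries, and HOXA and HOXC lay below the median of their own list in all 28. Trimming removed HOX peaks more often than others. The share of HOX peaks kept was 26.1% (median over libraries), against 43.0% of all peaks, and it was the smaller share in 27 libraries.

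**Figure D1:**
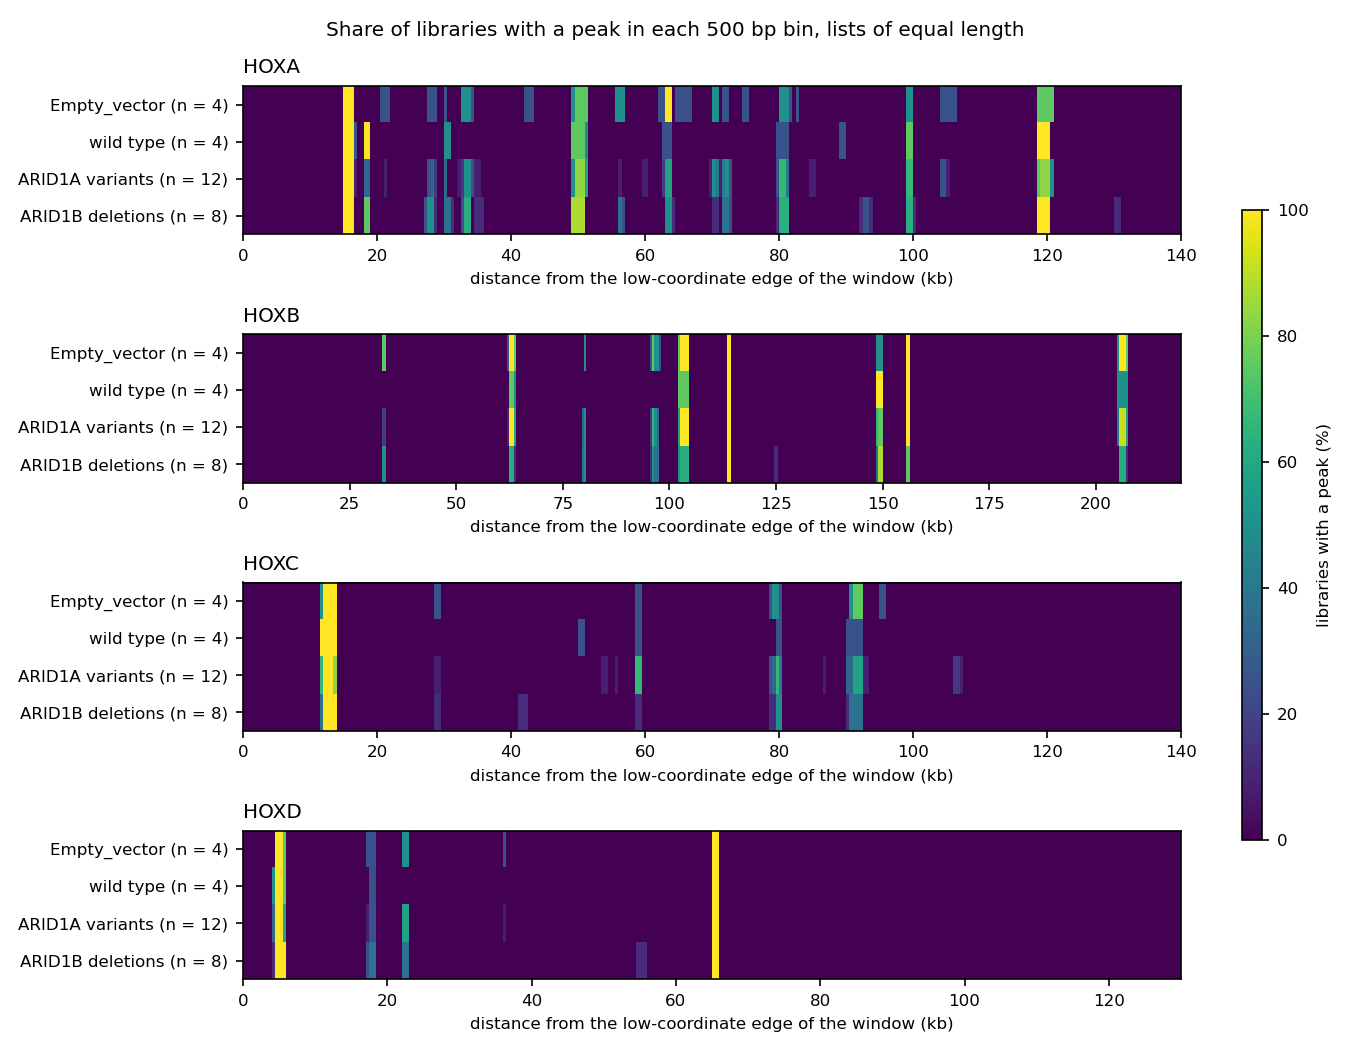
Share of libraries (%, colour) with a peak in each 500 bp bin of the HOXA, HOXB, HOXC and HOXD windows, by distance from the low-coordinate edge (kb), in lists of equal length. Rows are Empty_vector (n = 4), wild type (n = 4), ARID1A variants (n = 12) and ARID1B deletions (n = 8). Few narrow bands are bright in all rows, and HOXA holds the most bands of intermediate colour.

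The 35 merged regions were unevenly spread, with 15 in HOXA, 9 in HOXB, 6 in HOXC and 5 in HOXD. Their median width was 1227 bp, against 977 bp over all regions. Regions called in all 28 libraries numbered 5 (14.3%), beside 30.1% of all regions. Regions called in 10 to 18 libraries numbered 13 (37.1%), beside 15% of all. An intermediate number of calling libraries was thus more common among HOX regions, and no test of this was made. In the whole lists 26 of the 35 (74.3%) had a peak in all 28 libraries, beside 47.8% of the 32972 regions, and 33 (94.3%) had one in all 8 wild-type and Empty_vector libraries, beside 60.5%.

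Each cluster had at least 1 region open in every library. HOXA region 1 (chr7:27135146-27136589, 1444 bp) had a fold enrichment of 3.14 to 4.89 and the best median rank of HOXA, 7502. HOXB region 6 (chr17:46713687-46714445, 759 bp) reached 4.62 to 9.94. HOXC region 1 (chr12:54331928-54333788, 1861 bp), near the HOXC13 side of its window, had 4.30 to 5.40. HOXD region 1 (chr2:176944480-176945706, 1227 bp), on the HOXD13 side, had 4.88 to 8.38 and was also the widest of HOXD. HOXD region 5 (chr2:177005010-177005943, 934 bp) had 4.30 to 10.2. The fold at HOXD region 1 was 7.43, 7.23, 8.03 and 7.92 in the 4 Empty_vector libraries, 6.12 and 5.90 in ARID1A_WT and 7.23 and 8.38 in ARID1B_WT. ARID1A_WT was thus lowest of these at HOXD region 1, while ARID1B_WT 2 was highest. The median folds of the whole trimmed lists had the same extremes. They were 6.24, 5.82, 6.17 and 6.39 in Empty_vector, 5.72 and 5.66 in ARID1A_WT and 6.54 and 6.97 in ARID1B_WT. A difference particular to HOXD region 1 was not tested.

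The first comparison asked whether wild-type ARID1A or ARID1B changed open chromatin over the HOX clusters. No cluster passed the test in lists of equal length. Covered length in HOXA was 4.21, 6.18, 13.2 and 9.86 kb in Empty_vector, 7.97 and 6.70 kb in ARID1A_WT and 3.47 and 5.51 kb in ARID1B_WT. The Empty_vector libraries alone spanned the range of the wild-type libraries except at its lower end, and the groups overlapped. The means were 5.91 ± 1.91 kb for the wild type and 8.36 ± 3.98 kb for Empty_vector (SD, n = 4 each; two-sided exact permutation over libraries, p = 0.314, adjusted to 0.457 over the 4 clusters).

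HOXB had 7.61, 10.2, 5.79 and 7.10 kb in Empty_vector, 6.88 and 6.42 kb in ARID1A_WT and 4.55 and 1.81 kb in ARID1B_WT. Its means were 4.91 ± 2.30 and 7.66 ± 1.83 kb (SD, n = 4 each; exact permutation, p = 0.114, adjusted p = 0.457). HOXC had 2.62 ± 1.25 kb in the wild type and 3.68 ± 1.59 kb in Empty_vector (SD, n = 4 each; exact permutation, p = 0.343, adjusted p = 0.457). HOXD had 1.84 ± 0.159 and 2.20 ± 1.06 kb (SD, n = 4 each; exact permutation, p = 0.886, adjusted p = 0.886). All 4 cluster means were lower with the wild type, and in all 4 the groups overlapped.

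Summed over the clusters, Empty_vector covered 17.3, 22.2, 23.9 and 24.3 kb, ARID1A_WT 21.2 and 17.1 kb, and ARID1B_WT 11.3 and 11.5 kb. The 2 ARID1B_WT libraries lay below every control, and the 2 ARID1A_WT libraries lay close to the lower controls. The wild-type mean was 15.3 ± 4.79 kb and the Empty_vector mean 21.9 ± 3.20 kb, a difference of -6.61 kb (SD, n = 4 each; two-sided exact permutation, p = 0.0571, where 0.0286 is the smallest p these splits allow).

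**Figure D2:**
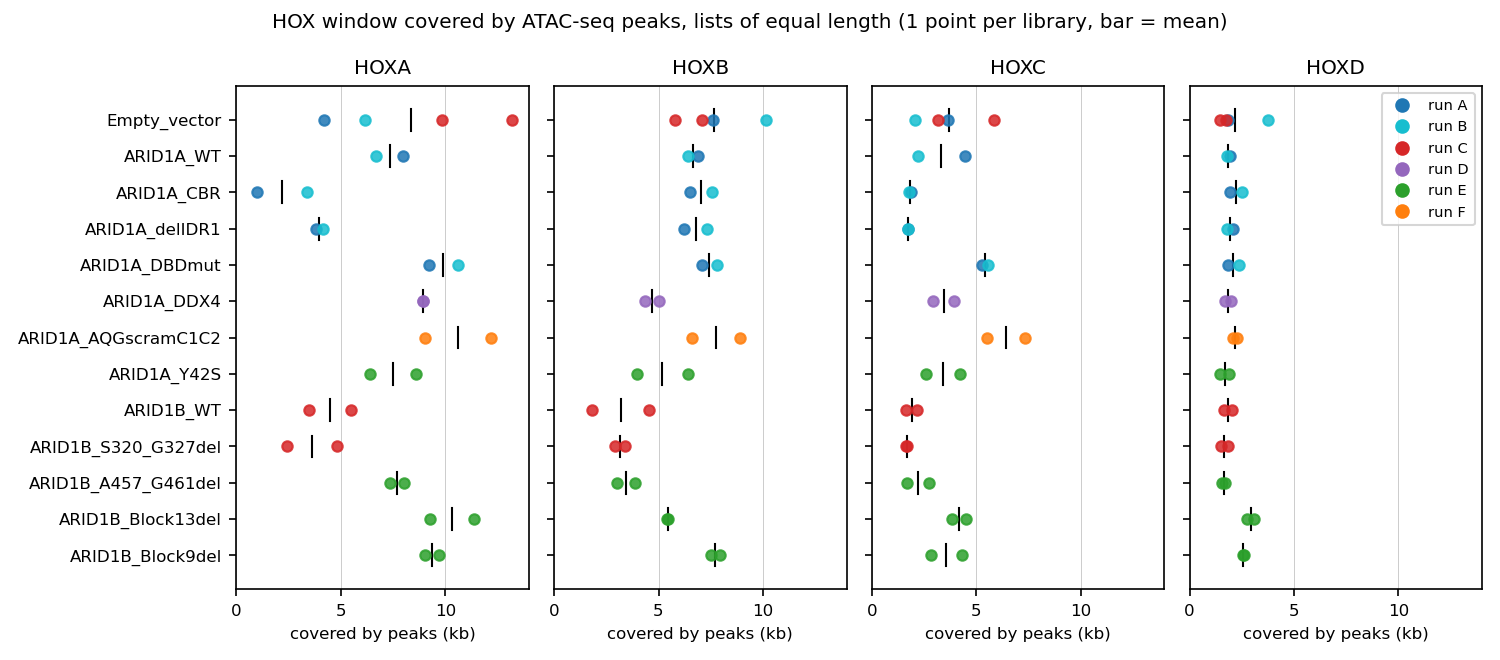
Length covered by peaks (kb, x axis) in the HOXA, HOXB, HOXC and HOXD windows for the 13 groups, in lists of equal length. Each point is 1 library, coloured by run, and the bar is the group mean. Empty_vector spreads from 4.21 to 13.2 kb in HOXA with its run C libraries highest, and HOXD values are narrow in most groups.

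The 2 wild-type proteins differed in their own runs. In runs A and B, ARID1A_WT covered 7.33 kb of HOXA against 5.19 kb in Empty_vector (means, n = 2 each), and the libraries did not overlap. In run C, ARID1B_WT covered 4.49 kb of HOXA against 11.5 kb, again without overlap and in the opposite direction. In HOXB both wild-type proteins lay below the control of their run, at 6.65 against 8.88 kb for ARID1A_WT and at 3.18 against 6.44 kb for ARID1B_WT, with no overlap. The sums were 19.2 against 19.7 kb for ARID1A_WT, which overlapped, and 11.4 against 24.1 kb for ARID1B_WT, which did not. In whole lists the ARID1B_WT sum turned to 50.4 against 43.7 kb, with HOXB, HOXC and HOXD above the controls without overlap and HOXA overlapping them. The ARID1A_WT sum was 72.8 against 86.5 kb in whole lists, which overlapped. The proteins were measured in different runs, so protein and run cannot be told apart.

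A longer list shows more of the weak HOX peaks, and the order of the groups depended on how far the lists were read. With 10000 peaks, HOX coverage was 6.14 and 4.43 kb in Empty_vector libraries 1 and 2, against 7.43 and 4.79 kb in ARID1A_WT. With 30000 peaks it was 32.5 and 40.6 kb against 36.3 and 32.2 kb, still overlapping. With 40000 peaks it was 68.7 and 72.3 kb against 54.4 and 44.1 kb, and both controls lay above both ARID1A_WT libraries. In run C, 10000 peaks gave 8.32 and 4.54 kb in Empty_vector and 3.40 and 1.30 kb in ARID1B_WT. With 20000 peaks the controls covered 27.6 and 25.3 kb against 14.7 and 11.5 kb. ARID1B_WT thus lay below its controls at both lengths. In the whole lists of run C, which are much longer for ARID1B_WT, the direction turned without overlap, at 54.9 and 46.0 kb in ARID1B_WT against 43.3 and 44.0 kb in Empty_vector.

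**Figure D3:**
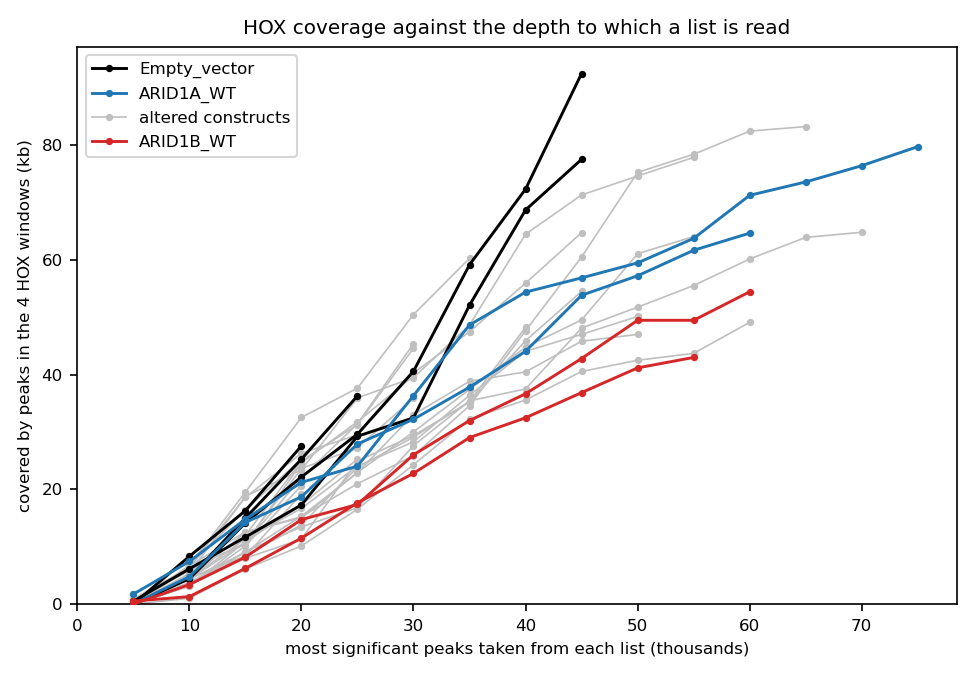
Length covered by peaks in the 4 HOX windows together (kb, y axis) against the number of most significant peaks taken from each list (x axis), 1 line per library. Black lines are Empty_vector, blue ARID1A_WT, red ARID1B_WT and grey the altered constructs. At 40000 peaks the 2 black lines that reach so far stand at 68.7 and 72.3 kb, above the blue and red lines. These 2 are from runs A and B, like the blue lines. The red lines are from run C, whose controls hold only 24527 and 28314 peaks.

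Within runs, lists of equal but greater length were compared as an alternative chosen after the data were seen. With 43130 peaks in runs A and B, Empty_vector covered 81.2 ± 7.89 kb, ARID1A_WT 54.2 ± 3.35 kb, ARID1A_CBR 54.3 ± 1.74 kb, ARID1A_delIDR1 49.6 ± 0.754 kb and ARID1A_DBDmut 66.0 ± 3.29 kb (SD, n = 2 each). All libraries with an ARID1A construct lay below both controls, and ARID1A_DBDmut, the ARID domain mutant, was nearest to them. With 24527 peaks in run C, Empty_vector covered 38.3 ± 7.00 kb, ARID1B_WT 17.3 ± 0.149 kb and ARID1B_S320_G327del 16.4 ± 0.483 kb (SD, n = 2 each). HOXA made up most of these gaps, at 36.7 kb in Empty_vector against 22.6 kb in ARID1A_WT and 19.4 kb against 5.81 kb in ARID1B_WT. In proportion HOXB differed least in runs A and B, at 15.0 against 13 kb, and HOXD differed least in run C, at 2.70 against 2.51 kb. The 24527 peaks were the whole list of Empty_vector 3 on chromosomes 1 to 22 and X, and Empty_vector 4 held 28314. ARID1B_WT held 63482 and 59776, so only its more significant peaks entered. In runs A and B Empty_vector held 45227 and 49468 peaks and ARID1A_WT 76530 and 62031. In whole lists the run C sum turned to 50.4 kb in ARID1B_WT against 43.7 kb in Empty_vector. The part of full list length in these gaps was not tested.

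Across runs A, B and C the wild type minus Empty_vector was -25.1 kb at these lengths. The difference was -13.9 kb in HOXA, -2.30 kb in HOXB, -7.83 kb in HOXC and -1.01 kb in HOXD. Each gave p = 0.0833 with labels permuted within runs (two-sided exact permutation), the smallest p that 24 splits allow, so this design could not pass the threshold of 0.05.

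**Figure D4:**
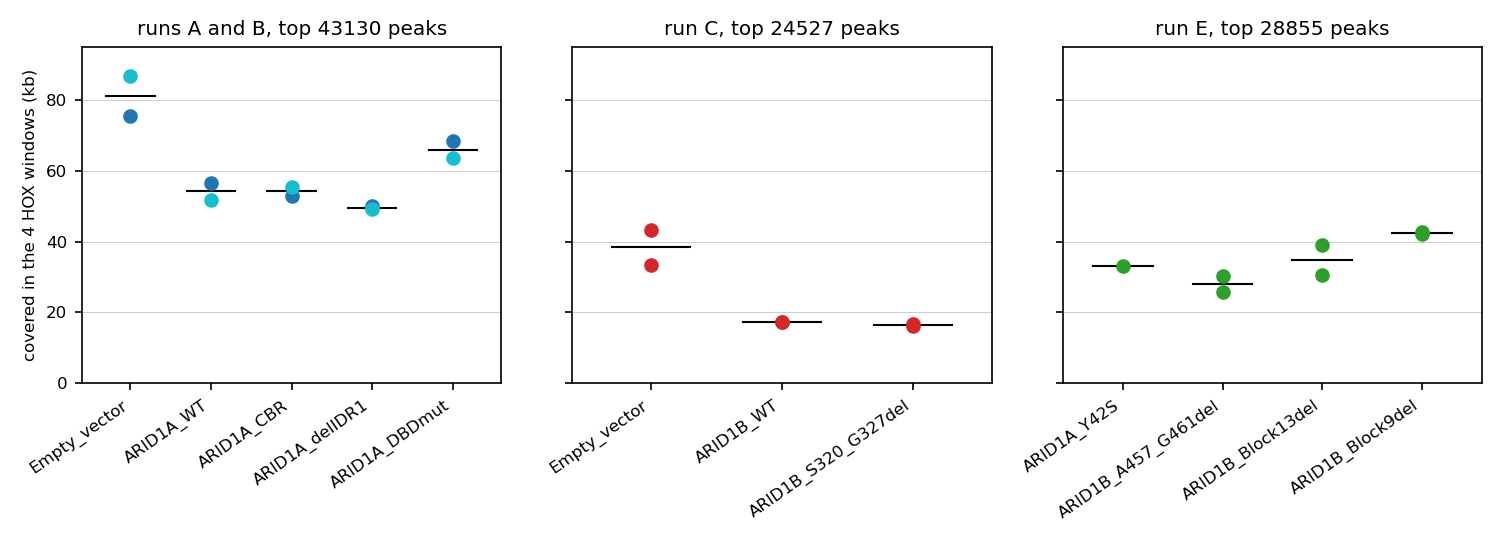
Length covered by peaks in the 4 HOX windows together (kb, y axis) for the constructs of runs A and B, run C and run E, each with lists of equal length within the panel. Points are libraries (dark blue run A, light blue run B, red run C, green run E) and bars are means. Empty_vector stands at 75.6 and 86.8 kb in the first panel and 33.4 and 43.3 kb in the second, above every other point of its panel. The length read in the second panel, 24527 peaks, is the whole list of Empty_vector 3, while ARID1B_WT lists go on to 63482 and 59776.

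The share of a whole list that lay in the HOX windows was lower with the wild type. As a percent of all covered bases it was 0.218%, 0.230%, 0.226% and 0.186% in Empty_vector, 0.142% and 0.144% in ARID1A_WT and 0.129% and 0.123% in ARID1B_WT. The groups did not overlap and their means differed by -0.0809 percentage points (two-sided exact permutation, p = 0.0286, the smallest possible). Each cluster alone also gave p = 0.0286 in the exact permutation test (adjusted p = 0.0286). In lists of equal length the same share was 0.0787%, 0.0912%, 0.140% and 0.127% in Empty_vector, 0.0914% and 0.0782% in ARID1A_WT and 0.0596% and 0.0669% in ARID1B_WT, and the groups overlapped. The whole-list share was added after the data were seen, and wild-type lists were the longer ones, so the share and the list length moved together and the part of length in it was not tested.

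The next comparisons asked how altered proteins behaved. The 12 libraries of ARID1A variants covered 19.4 ± 5.62 kb of the HOX windows in lists of equal length (SD, n = 12), 4.08 kb more than the wild type (two-sided exact permutation, p = 0.215, adjusted to 0.447 over 3 comparisons). Wild type here pools both proteins, and the mean of ARID1A_WT alone was 19.2 kb, close to that of the variants. The 8 libraries of ARID1B deletions covered 17.8 ± 6.02 kb (SD, n = 8), 2.51 kb more than the pooled wild type (exact permutation, p = 0.477, adjusted p = 0.477), while ARID1B_WT alone had 11.4 kb. All 20 libraries together covered 18.7 ± 5.68 kb (SD, n = 20), a difference of -3.16 kb from Empty_vector (exact permutation, p = 0.298, adjusted p = 0.447). None of the 3 passed, and replicates of a construct entered as independent libraries.

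The constructs spread widely around these means. The lowest sums were 8.52 and 11.7 kb in ARID1B_S320_G327del and 11.3 and 15.2 kb in ARID1A_CBR, followed by 13.8 and 15.0 kb in ARID1A_delIDR1. The highest were 23.2 and 30.7 kb in ARID1A_AQGscramC1C2 and 23.4 and 26.3 kb in ARID1A_DBDmut. ARID1B_Block9del had 22 and 24.5 kb, ARID1B_Block13del 23.7 and 21.9 kb, ARID1A_DDX4 17.9 and 19.9 kb, ARID1A_Y42S 17.3 and 18.3 kb and ARID1B_A457_G461del 15.1 and 14.8 kb. The libraries of ARID1B_S320_G327del overlapped those of ARID1B_WT, at 11.3 and 11.5 kb in the same run. No other deletion of ARID1B overlapped ARID1B_WT, but these 3 come from run E.

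HOXA varied most among the altered constructs. Mean HOXA coverage ran from 2.19 ± 1.68 kb in ARID1A_CBR and 3.62 ± 1.69 kb in ARID1B_S320_G327del to 10.3 ± 1.52 kb in ARID1B_Block13del and 10.6 ± 2.26 kb in ARID1A_AQGscramC1C2 (SD, n = 2 each). ARID1A_CBR 1 covered 1 kb of HOXA, the lowest library, and Empty_vector 3 covered 13.2 kb, the highest. HOXD coverage was between 1.44 and 3.08 kb in the 20 altered libraries. HOXC was lowest in ARID1B_S320_G327del, at 1.68 ± 0.0304 kb, and highest in ARID1A_AQGscramC1C2, at 6.43 ± 1.27 kb (SD, n = 2 each).

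Run E, with lists of 28855 peaks, allowed its constructs to be set side by side. ARID1B_A457_G461del covered 28 ± 3.18 kb, ARID1B_Block13del 34.8 ± 6.03 kb and ARID1B_Block9del 42.5 ± 0.426 kb (SD, n = 2 each). ARID1A_Y42S 1 covered 33.0 kb, and ARID1A_Y42S 2 was too short to enter. Both ARID1B_Block9del libraries lay above all others of the run, and the 25.7 and 30.2 kb of ARID1B_A457_G461del lay below the 39.0 and 30.5 kb of ARID1B_Block13del by a narrow margin. Differences among these constructs were not tested.

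Wild-type expression gained 1 HOX region of 35 (2.86%), that is a region called in all 4 wild-type and no Empty_vector library, beside 5.78% of all regions. No HOX region was lost, called in all 4 Empty_vector and no wild-type library, beside 2.27% of all. Fewer wild-type than Empty_vector libraries called 19 HOX regions (54.3%, against 29.7% of all regions), more called 5 (14.3%, against 23.5%) and equal numbers called 11 (31.4%, against 46.8%). The share gained was thus no larger than the background.

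The gained region was HOXA region 2 (chr7:27138067-27138938, 872 bp), toward the HOXA2 side of the window and about 18.5 kb from its edge. Its fold enrichment was 1.87, 1.88, 2.62 and 2.66 in Empty_vector, 2.73 and 2.83 in ARID1A_WT and 2.99 and 3.54 in ARID1B_WT. All wild-type values lay above all control values, but the gap between the closest of them was small. The region was picked by its ranks in these same libraries. The split of ranks at 19433 was thus fixed, and the folds are no independent support. The ranks were 36159, 27713, 22540 and 19700 in Empty_vector and 13181, 11925, 16850 and 11034 in the wild type. Empty_vector 4, at rank 19700, thus lay near the limit of 19433, and all 28 whole lists held a peak here.

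Among the altered proteins both libraries called HOXA region 2 with ARID1A_DBDmut (fold 2.64 and 2.72), ARID1B_A457_G461del (3.31 and 3.59) and ARID1B_Block13del (3.13 and 3.05). Neither did with ARID1A_CBR (2.13 and 1.81), ARID1A_delIDR1 (2.5 and 2.47) or ARID1A_AQGscramC1C2 (2.55 and 2.52). One library of each of the other 4 constructs called it. ARID1B_S320_G327del 1 had a fold of 2.95 yet a rank of 20856 in its long list, so the call and the fold do not always order libraries alike.

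**Figure D5:**
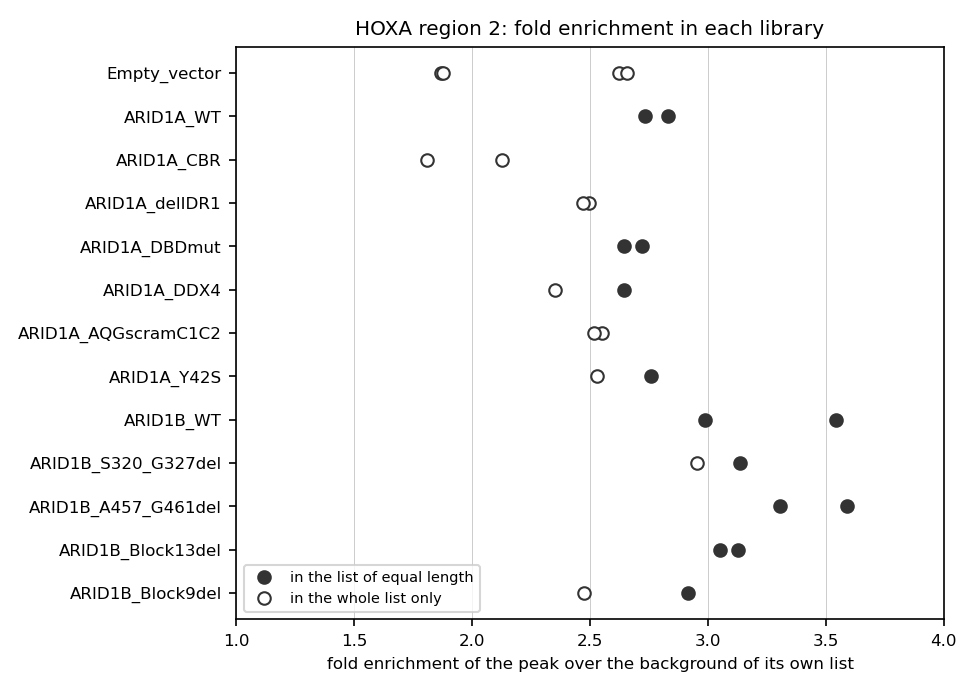
Fold enrichment (x axis, over the background of each library's own list, axis starting at 1) of HOXA region 2 in each of the 28 libraries, by construct. Filled points are peaks within the list of equal length and open points are peaks in the whole list only. Empty_vector points are all open, from 1.87 to 2.66, and wild-type points all filled, from 2.73 to 3.54. The definition of a gained region fixed which of these are open and which filled.

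Several other HOXA regions ran the other way. HOXA region 9 (chr7:27182306-27184001, 1696 bp) was called in 4 Empty_vector libraries and 1 wild-type library, ARID1A_WT 2. Its fold was 2.48, 2.08, 2.99 and 2.62 in Empty_vector, 2.27 and 2.69 in ARID1A_WT and 2.67 and 2.67 in ARID1B_WT, so the folds overlapped. Its ranks were 15607, 18097, 15581 and 17914 in Empty_vector, 25739 and 15454 in ARID1A_WT and 26221 and 36360 in ARID1B_WT, in lists of unequal full length. HOXA region 6 (chr7:27152487-27155838), the widest at 3352 bp, was called in 2 Empty_vector libraries and no wild-type library. Its upper end, and so its width, is that of a peak in ARID1B_Block13del 1 with a fold of only 1.21. The fold of HOXA region 6 was 1.77 and 1.70 in Empty_vector libraries 1 and 2 and 3.34 and 2.99 in libraries 3 and 4 of run C, with 2.14 to 2.54 in the wild type. HOXA region 10 (chr7:27189686-27192862, 3177 bp) was split by run in the same manner, at 1.80 and 1.86 against 2.95 and 2.56 in Empty_vector. HOXA region 8 (chr7:27175738-27176620) was also called in 2 Empty_vector libraries and no wild-type library.

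HOXA region 15 (chr7:27238602-27240885, 2284 bp), toward the HOXA13 side, was named after its values were seen. It was called in 25 libraries with a median fold of 5.43, the highest of any HOXA region. Its fold was 3.51, 3.91, 5.56 and 4.92 in Empty_vector and 5.79, 5.69, 5.80 and 5.42 in the wild type. It was 3.70 and 3.76 in ARID1A_CBR and 3.83 and 3.74 in ARID1A_DDX4, near the lower controls. Folds of the ARID1A_DDX4 lists were low as a whole, with medians of 4.65 and 5.04 after trimming. HOXA region 12 (chr7:27212271-27213549, 1279 bp) was called in both libraries of ARID1B_A457_G461del (2.65 and 2.72) and in no other library, although 22 whole lists had a peak there.

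In HOXB, region 1 (chr17:46632743-46633385) and region 4 (chr17:46695958-46697948) were each called in 3 Empty_vector libraries and no wild-type library. The fold at HOXB region 1 was 4.97, 4.67, 4.26 and 5.28 in Empty_vector and 3.94, 4.64, 4.52 and 5.28 in the wild type, so the groups overlapped. HOXB region 1 had no peak in either whole ARID1A_DDX4 list, but these lists are short, at 21157 and 23636 peaks. HOXB region 5 (chr17:46702334-46704462, 2129 bp), the widest of HOXB, was called in 4 Empty_vector and 3 wild-type libraries and in neither ARID1B_A457_G461del library.

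HOXB region 7 (chr17:46748833-46749847, 1015 bp) ran in the opposite direction, with 4 wild-type and 2 Empty_vector libraries. Its fold was 8.01 and 7.50 in Empty_vector libraries 1 and 2, which called it, and 4.62 and 5.32 in libraries 3 and 4, which did not. ARID1A_WT had 7.74 and 6.58 and ARID1B_WT 6.85 and 7.52. ARID1B_WT thus exceeded the controls of its run here, while ARID1A_WT overlapped its own. ARID1A_DDX4 was low, at 3.68 and 3.85, and ARID1A_Y42S 2, the shortest list, had no peak. The median fold of the whole trimmed ARID1A_DDX4 lists was also low, at 4.65 and 5.04, against 6.28 (median over libraries).

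HOXC region 5 (chr12:54410460-54413193, 2734 bp), the widest of HOXC, was called in 3 Empty_vector libraries and 1 wild-type library. Its fold was 2.48, 2.09, 4.14 and 2.96 in Empty_vector, 2.85 and 2.65 in ARID1A_WT and 3.01 and 3.12 in ARID1B_WT, and the groups overlapped. HOXC region 4 (chr12:54398723-54400256) had 2 and 1 libraries, and HOXC region 2 (chr12:54348601-54349253) had 1 and 0. None of these 3 was called with ARID1B_WT, ARID1A_CBR, ARID1A_delIDR1, ARID1B_S320_G327del or ARID1B_A457_G461del. Before trimming, the lists of these constructs held 43190 to 70321 peaks. HOXC regions 4 and 5 had a peak in all 28 whole lists, and HOXC region 2 in 26. The part of list length in these calls was not tested. The wild-type calls at HOXC regions 4 and 5 were in ARID1A_WT.

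HOXD region 3 (chr2:176962060-176962796) was called in 2 Empty_vector libraries and no wild-type library. Its fold of 4.73, 4.54, 4.72 and 4.84 in Empty_vector overlapped 4.98, 4.25, 5.06 and 5.84 in the wild type. HOXD region 4 (chr2:176976056-176976424, 369 bp) was called in 1 Empty_vector library and 1 ARID1A_DBDmut library.

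Libraries differed in how many of the 35 HOX regions they called. Each called between 55.3% and 58.6% of all regions, a share held nearly level by cutting every list to the same length. Empty_vector called 13 and 18 regions in its first pair of libraries (runs A, B) and 26 and 24 in the pair of run C. ARID1A_WT called 18 and 16, and ARID1B_WT 11 and 13. The lowest were 8 and 10 in ARID1B_S320_G327del and 10 and 12 in ARID1A_CBR. The highest were 25 and 28 in ARID1B_Block13del and 27 and 26 in ARID1A_DDX4. ARID1A_DDX4 lists are short, at 21157 and 23636 peaks. Trimming kept 92.1% and 82.5% of their peaks on chromosomes 1 to 22 and X, and 87.9% and 55.3% of their HOX peaks. ARID1B_Block13del lists held 33259 and 31418 peaks. A link of full list length to these counts was not tested.

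Whole lists gave 85 HOX regions, of which 25 (29.4%) were called in all 28 libraries, beside 16.6% of all regions. Of these 85, 4 were gained (4.71%), beside 18.2% of all regions. The HOX share of gained regions was thus below the background in whole lists too. Wild-type lists are longer there, and the part of length in these counts was not tested. The 4 regions lay at chr7:27160104-27160979 in HOXA, at chr12:54382420-54383250 and chr12:54452900-54453744 in HOXC and at chr17:46599436-46600498 on the edge of the HOXB window. The wild-type fold was 1.98 to 2.88 in HOXA, 2.12 to 3.23 and 3.39 to 4.87 in HOXC and 4.01 to 6.84 in HOXB. Both libraries of ARID1B_S320_G327del and ARID1B_A457_G461del called all 4, and no library of ARID1A_DDX4, ARID1A_AQGscramC1C2 or ARID1A_Y42S called any. Lists of the former constructs held 50763 to 70321 peaks, and lists of the latter held 19489 to 36160. The part of list length in this contrast was not tested.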

How the data were processed

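Each of the 28 libraries has 1 broad peak list. Per the submitters' processing notes, the tools included MACS2, SAMtools 0.1.19, Picard 2.8.0, Bowtie2 and bcl2fastq, with build hg19. The caller options, control and cut-site offset were not given in the sources used here. The deposited columns hold a score, a fold enrichment (a ratio over background), a -log10 p-value and a -log10 q-value per peak, all the authors' own. The smallest -log10 q-value per deposited list was 3.00 to 3.03. These lists hold no read counts, so depth is unknown and no counting interval is given. The series' design text describes CUT&Tag, while the titles name ATAC-seq, which was followed.

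Lists were restricted to chromosomes 1 to 22 and X, ranked by -log10 p-value and shortened to the 19433 best peaks. Covered length was clipped to the windows. Overlapping peaks were merged, a call needed an overlap of 1 bp, and a region needed calls from 2 libraries or more. Differences of means were tested with exact two-sided permutation tests over libraries and adjusted by the Benjamini-Hochberg method, with a threshold of 0.05. Scripts (Python 3.11.15, numpy 2.4.6, pandas 2.3.3) were tested on simulated data.

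Regions were named by rule: gained or lost regions, the widest and best-ranked of each cluster, up to 3 per cluster with the largest difference in wild-type and Empty_vector libraries, and regions called in both libraries of 1 construct only. HOXD region 5, HOXA region 15 and the regions gained in whole lists were named outside that rule. The members and lists were chosen with earlier results of these data known. Alternatives were whole lists, lists at 50% of the length, equal covered length, ranking by fold, counts of peaks, a 50% overlap, leaving out each library, and replicate and run blocks. Gene neighbours and Polycomb genes were not analysed here, since no hg19 annotation was used.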

Additional observations from a re-analysis of the deposited data

Results flagged for a closer look

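HOXA coverage moved in opposite directions with the wild-type proteins. In lists of equal length ARID1A_WT minus Empty_vector was 2.14 kb in runs A and B, and ARID1B_WT minus Empty_vector was -7.04 kb in run C, with all libraries of a protein on 1 side of the controls of its run. The controls themselves differed by run, with means of 5.19 kb in runs A and B and 11.5 kb in run C (n = 2 each). The means were 7.33 kb in ARID1A_WT and 4.49 kb in ARID1B_WT (n = 2 each). Protein and run cannot be told apart, and the difference between the proteins was not tested. With the longest equal lists within runs HOXA was lower than the controls with both proteins, so the opposite directions hold for the shorter lists.

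In HOXD, 1 of the 4 Empty_vector libraries stood apart. Empty_vector 2 covered 3.77 kb, against 1.83, 1.74 and 1.46 kb in the others, and its gap to the nearest took 0.841 of the whole range, past Dixon's 95% critical value for 4 samples. Chance flags about 1 in 20 groups in this way.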

How the results depend on the processing

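Of 228 recomputed values, 199 kept their direction and side of the threshold, 11 reversed, 11 counts or values moved, 7 became significant and 0 lost significance. Whole lists reversed the wild-type difference from Empty_vector in HOXB to 653.0 bp and in HOXD to 696.0 bp, and the difference from the wild type to -11278 bp for ARID1A variants and -13367 bp for ARID1B deletions. Lists at 50% of the length gave 188.0 bp in HOXA, -128.5 bp for ARID1A variants and -455.75 bp for ARID1B deletions. An equal covered length gave 960.7 bp for altered constructs against Empty_vector. With ARID1B_S320_G327del alone, the ARID1B deletion of run C, the difference from the wild type pooled over runs A, B and C was -5162 bp. Its mean was 10.1 kb, against 11.4 kb in ARID1B_WT of the same run, and these libraries overlapped.

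The replicate block turned HOXA to 718.5 bp (exact permutation, p = 0.889), and it moved no other call. For Empty_vector and ARID1A_WT the numbers 1 and 2 go with runs A and B, but for ARID1B_WT both numbers are in run C. Over all 6 same-numbered pairs, which mix runs, the correlation was -0.833 to 0.813, so the number was not taken as a pairing. With the run as a block the sum differed by -4597 bp (exact permutation, p = 0.167).

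The share of whole-list covered length, added after the data were seen, made 7 differences significant: -0.0454, -0.0116, -0.0204 and -0.00351 percentage points in HOXA, HOXB, HOXC and HOXD, -0.0809 in the sum, 0.0341 for ARID1A variants against the wild type and -0.0497 for altered constructs against Empty_vector. The cause was not tested.

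Leaving out each library in turn moved the wild-type difference from Empty_vector between -3830 and -838 bp in HOXA, -3404 and -1712 bp in HOXB, -1675 and -344 bp in HOXC, -601 and 168 bp in HOXD and -8594 and -5288 bp in the sum. Only HOXD changed direction, to 167.583 bp without Empty_vector 2. The gained count was 1 throughout, and the lost count was 0 to 1, at 1 without Empty_vector 1, Empty_vector 3 or ARID1A_WT 2. Gained HOX regions numbered 4 of 85 in whole lists (18.2% of all regions), 0 of 9 at 50% of the length (2.52%), 0 of 27 at equal covered length (2.35%) and 0 of 27 by fold (4.76%). Regions called in all 28 libraries numbered 25 (16.6% of all regions), 0 (32.4%) and 1 (29.0%) in the first 3 of these settings, and 1 of 35 with a 50% overlap (16.7%).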

Other observations

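A few HOX peaks had a high significance and a low fold. Of 554 HOX peaks in lists of equal length, 6 had a fold under 2, beside 77 of 544124 peaks in all. Empty_vector 1 held 3 of the 6, all in HOXA. The first, at chr7:27194838-27195322, had a fold of 1.03, a -log10 p-value of 154 and rank 297 in its list, the best rank of any HOX peak in that library. In ARID1B_Block13del 1 a peak at chr7:27154923-27155838 had a fold of 1.21 and rank 1618. Without peaks under a fold of 2 the wild-type difference from Empty_vector over all clusters was -5967 bp (exact permutation, p = 0.114), and each tested difference in covered length kept its direction and its side of the threshold. Why these ranks and folds part was not tested.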
